A study of Ovis aries with 6 samples.

Results

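The genes described here are those of the secretory pathway and of vesicle traffic, measured in the somatic cells of sheep milk. They were taken by symbol: RAB GTPases and their numbered partners (RAB followed by a digit), ARF1 to ARF6 and SEC genes. COPI coat subunits whose symbol starts with COP were also taken, with the VAMP, syntaxin (STX), SNAP and TMED families. The rule found 95 genes among the 11285 gene symbols that could be matched to the deposited table. Each gene is represented by its matched transcript of highest mean RPKM (reads per kilobase of transcript, scaled to the library's total). Only 31.9% of the table's transcripts matched a symbol, so a gene's main transcript may be unmatched. Levels and ranks given here are those of matched transcripts. Of the 95, 75 averaged 1 RPKM or more across the libraries and were tested, and 20 lay below that minimum. Another 50 sheep symbols of the same families had no matched transcript and are not analysed here.

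Milk somatic cells are a mixture of immune cells and shed mammary epithelium, and their RNA was sequenced in 6 libraries. The 3 linseed libraries came from 3 Comisana ewes after 3 weeks on hay and a concentrate holding 20% extruded linseed on a dry matter basis. The 3 control libraries came from the same ewes, at 90 days of lactation at the start, on hay and a commercial concentrate for 3 weeks. Every ewe received linseed second and no ewe stayed on the control concentrate, so the diet and the time in lactation cannot be told apart; each library came from the unsorted cell pellet of 250 ml of milk.

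Proteins bound for secretion enter the endoplasmic reticulum (ER) through the SEC61 channel and leave it in vesicles coated with COPII, while COPI-coated vesicles, whose coat is recruited by ARF GTPases, carry material back from the Golgi. RAB GTPases mark each compartment and recruit the tethers and motors that move vesicles, and SNARE proteins of the VAMP, syntaxin and SNAP families fuse the vesicle with its target. In the lactating mammary gland this route carries the caseins and the other milk proteins, and in neutrophils and macrophages the same machinery serves phagocytosis, lysosomes and the release of granules.

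The libraries held 4941935, 5978026 and 19912996 reads in linseed ewes 1, 2 and 3, and 22644050, 8805705 and 10602801 reads in control ewes 1, 2 and 3, as solved from the RPKM values. Ewe 3 stood apart in both diets: milk protein genes took 2.39% of its RPKM with linseed, against 34.9% and 28.9% in linseed ewes 1 and 2, and 8.27% in its control library, against 59.4% and 41.2% in control ewes 1 and 2. Markers of single cell types differed between libraries. The summed RPKM of 6 measured neutrophil markers was 2314 to 3187 in linseed libraries and 422 to 954 in control libraries, with S100A8 and S100A9 the most abundant of them in every library and the granule enzyme MMP8 at 0 in every library. The sum of 9 macrophage markers was 919.9 to 2091 RPKM with linseed and 116 to 1261 in controls, with MARCO and MRC1 at 0 in some libraries. The sum of 7 mammary epithelial markers was 103 to 1379 RPKM with linseed and 426 to 1030.0 in controls. Of these 7, 3 had a positive log2 change (linseed minus control) and 4 a negative one. CD24 had 29.6 to 51.65 RPKM with linseed and 133 to 287 RPKM in controls. KRT8 had 21.3 to 500 RPKM with linseed and 17.6 to 98.6 RPKM in controls. The sum of 8 T and NK cell markers was 73.3 to 172 RPKM with linseed and 9.54 to 687 RPKM in controls. That of 7 B and plasma cell markers was 7.38 to 28.6 against 1.27 to 25.8 RPKM, with MZB1 and PAX5 at 0 in some libraries. The 1 measured erythrocyte marker, ALAS2, was at 0 throughout. The part of these markers in the results below was not tested.

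Together, the 95 genes took 0.15% to 0.32% of RPKM in linseed libraries and 0.17% to 0.41% in control libraries. Their RPKM values summed to 1530.0, 1630.0 and 2286 in linseed ewes 1, 2 and 3 and to 1693, 1536 and 2295 in control ewes 1, 2 and 3. In each diet ewe 3 had the highest sum. By role, the RAB GTPases summed to 288, 421 and 866 RPKM with linseed and 651, 607 and 1007 RPKM in controls, lower with linseed in each ewe. The VAMP family, mostly VAMP8, summed to 634, 456 and 360 RPKM with linseed and 137, 189 and 202 RPKM in controls, higher in each ewe with no overlap. The ARF GTPases summed to 104, 163 and 275 RPKM with linseed and 334, 213 and 416 RPKM in controls, where ARF4 made up most of the difference. Beneath that total, single members differed widely: on the log2(RPKM + 1) scale, changes (linseed minus control) ran from -3.24 for ARF4 to 2.25 for TMED3. Of the 75 tested members, 46 had a negative change and 29 a positive one. Over all 5976 tested genes, 3465 had a negative change and 2511 a positive one, a similar split. The median change of the members was -0.40, beside -0.25 over all 5976 tested genes and -0.12 over all 15891 tested transcripts. Since whole cell mixtures were sequenced, fewer cells of a type and less RNA per cell cannot be told apart.

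In the fit without the ewe as a block, limma called 0 of the 75 members and 0 of the 15891 transcripts at an adjusted p under 0.05 (0.0% called), with a smallest adjusted p of 0.263; limma-voom on the recovered reads also called 0, and 2464 transcripts had an unadjusted p under 0.05. At an unadjusted p under 0.05 that fit held 16 members that were lower with linseed, where 9.32% of all tested genes were lower, and 4 that were higher, where 8.38% of genes were. With the ewe as a block, limma called 5 members, all lower with linseed, where 115 of the 5976 tested genes and 1.34% of transcripts were called lower. It called 0 members higher, where 83 of the 5976 genes and 1.28% of transcripts were. The 5 were ARF4, RAB1A, RAB5A, RAB21 and TMED5, and ARF4, RAB1A and RAB21 were measured on curated transcripts of 543, 615 and 669 nt, lengths that are multiples of 3 and may leave out the untranslated ends. None of the 5 was called with the block under quantile normalization, a pseudocount of 0.1 or a length correction. The count also rested on which ewes were kept: it was 3 without ewe 1, 3 without ewe 2 and 14 without ewe 3, all lower.

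By direction alone, 31 of the 75 tested members were lower with linseed in all 3 ewes, or 41.3%, where 30.8% of all tested genes were. For 13 members, or 17.3%, linseed was higher in all 3 ewes, where 22.7% of genes were. In 14 members every linseed library lay below every control library (9.27% of genes), and in 10 every linseed library lay above every control library (13.4% of genes). Once milk protein genes were removed from the total, the median change was -0.67 for the members and -0.54 for all tested genes. The members' median was -0.10 without linseed ewe 1 and -0.92 without linseed ewe 3, beside 0.03 and -0.29 over all tested transcripts.

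**Figure D1:**
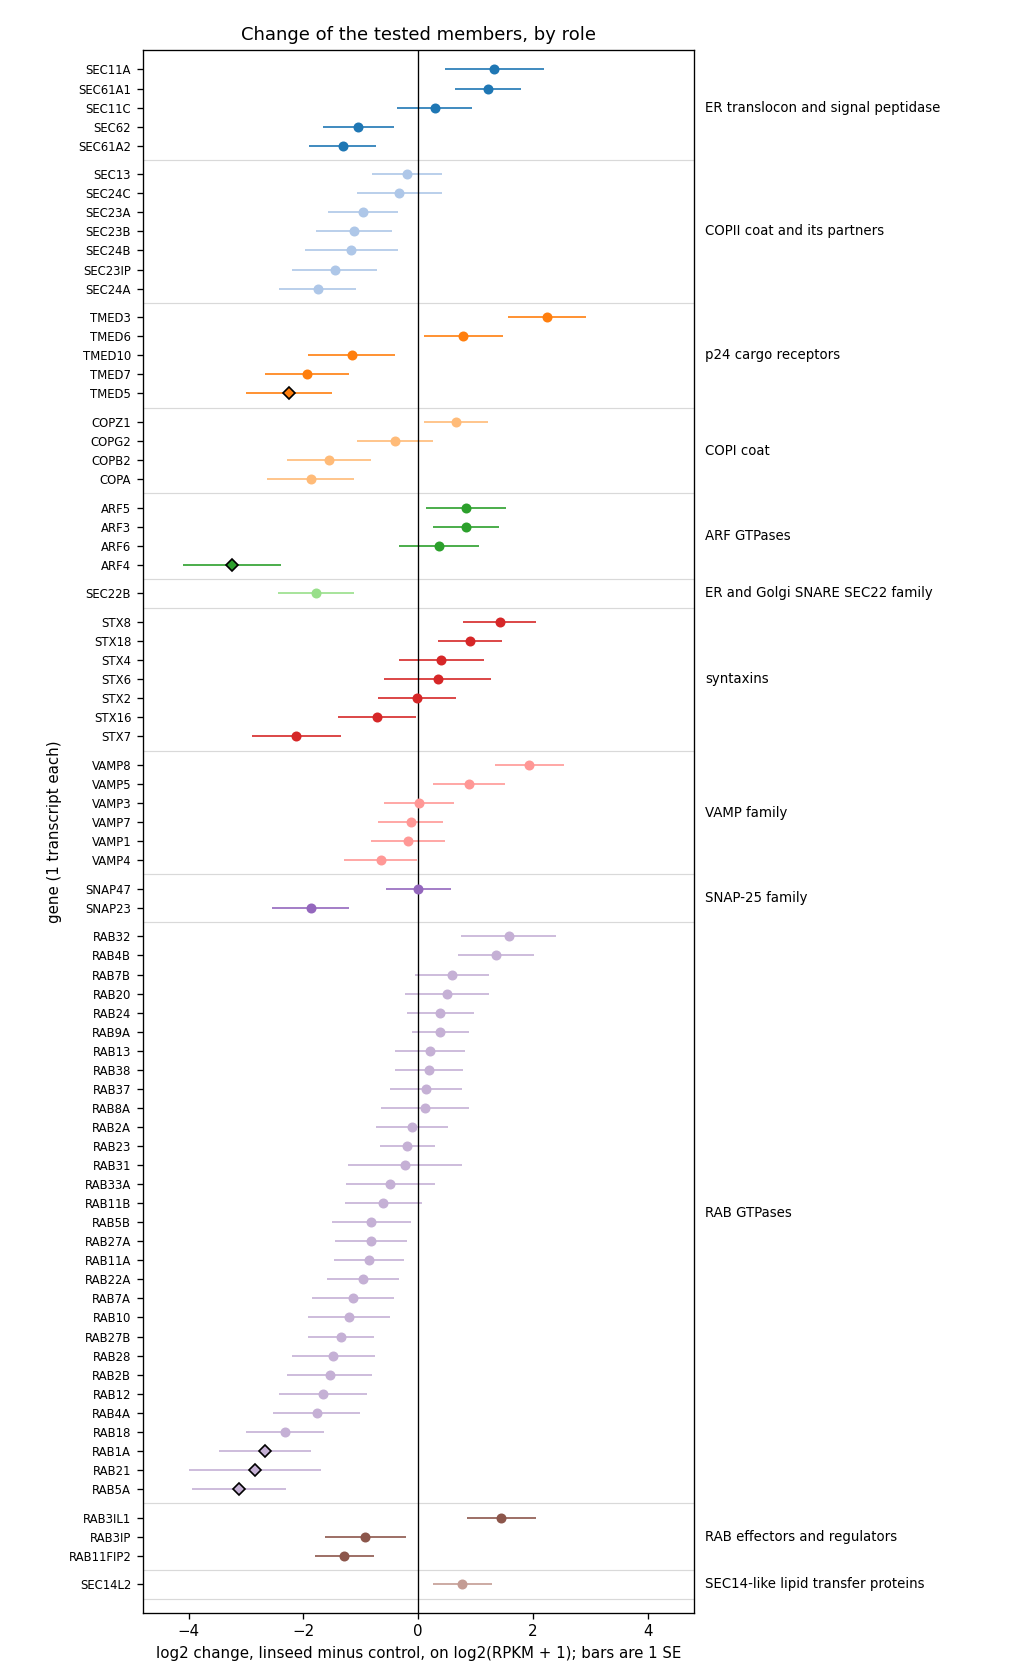
Log2 change (linseed minus control, on log2(RPKM + 1)) of the 75 tested members (1 transcript each), grouped by role, with bars of 1 standard error from limma without the block. Diamonds mark the 5 genes called with the ewe as a block, all on the negative side; the 7 COPII genes all lie left of 0 (SEC24C lies right of it with a length correction), and the other groups with more than 1 gene hold both signs.

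At the entry to the ER, the pore and the associated factor SEC62 lay on opposite sides. SEC61A1, the pore subunit of the translocon, had 147, 136 and 111 RPKM in linseed ewes 1, 2 and 3, against 64.5, 41.9 and 63.7 RPKM in control ewes 1, 2 and 3. Every linseed library was above every control library. Its mean was 131 ± 18.1 RPKM with linseed and 56.7 ± 12.9 RPKM in controls (SD, n = 3 each), a log2 change of 1.21 ± 0.57 (SE) that did not pass in limma (adjusted p = 0.333). Its paralog SEC61A2 was scarce and went the other way, at 0.250, 0.552 and 1.80 RPKM with linseed against 2.35, 2.29 and 6.61 RPKM in controls. The groups of SEC61A2 did not overlap either, and SEC61A1 was the more abundant paralog in every library. SEC62, which assists the insertion of short secretory proteins, had 15.1, 8.06 and 23.8 RPKM with linseed against 38.9, 22.2 and 33.5 RPKM in controls, lower in each ewe with groups that overlapped.

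The catalytic subunits of signal peptidase, which cuts the signal sequence from entering proteins, showed no common direction. SEC11C had 41.8, 55.8 and 47.9 RPKM with linseed and 44.3, 73.0 and 18.6 RPKM in controls, a log2 change of 0.29 ± 0.65 whose sign turned with the length correction (-0.27) and when milk proteins were removed from the total (-0.057). SEC11A had 6.11, 17.0 and 1.24 RPKM with linseed and 6.22, 0.416 and 0.777 RPKM in controls. Its difference lay mostly in ewe 2, whose control value rested on 4 reads, and its log2 change of 1.33 ± 0.86 did not pass (limma, adjusted p = 0.451).

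All 7 tested genes of the COPII coat and its partners, which bud vesicles from the ER, had negative changes on the 1 transcript used for each. SEC24C turned with a length correction. Of the 7, 4 were lower in all 3 ewes (57.1%, where 30.8% of all tested genes were), and the median was -1.12. A second SEC24C transcript, of 5386 nt, was higher with linseed in each ewe (change 0.77), and SEC24C summed over transcripts was at -0.014. Further SEC23B transcripts had changes of -0.39, -0.46 and 0.20. None of the 7 genes was called by limma, with a smallest adjusted p of 0.285, or 0.063 with the block. SEC24A, a cargo adaptor of the inner coat, had 0.774, 0.666 and 3.06 RPKM with linseed against 9.05, 2.66 and 11.4 RPKM in controls, a log2 change of -1.75 ± 0.67. Linseed was lower in each ewe, but linseed ewe 3 lay above control ewe 2. The adaptor SEC24B had a change of -1.16 and the inner coat GTPase activators SEC23A and SEC23B had changes of -0.96 and -1.12, while SEC24C and the outer cage subunit SEC13, the most abundant of the group, were nearer to 0.

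SEC24C had 3.39, 6.37 and 18.6 RPKM with linseed and 9.03, 4.79 and 20.6 RPKM in controls, a log2 change of -0.33 ± 0.74 that became 0.12 with the length correction. SEC13 had 13.1, 24.3 and 32.4 RPKM with linseed and 35.7, 22.4 and 19.8 RPKM in controls, a change of -0.20 ± 0.61. Both sets of values overlapped widely, and the ewes did not share a direction. The COPII transcripts were long, with a median of 4425 nt against 2116 nt over all tested genes, and longer transcripts had lower changes over all genes (Spearman correlation -0.38 across 5976 genes, -0.21 across the 75 members, from the same 6 libraries). With a correction for length the COPII median was -0.79, and SEC24C was above 0.

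The p24 (TMED) proteins, which select cargo at the ER and Golgi, held both the highest positive change of the 75 members and 1 of the 5 genes called with the block. TMED3 had 120.5, 154 and 146 RPKM in linseed ewes 1, 2 and 3, against 13.0, 68.3 and 25.6 RPKM in control ewes 1, 2 and 3. The linseed libraries all lay above the control libraries and were close to one another, at a mean of 140.1 ± 17.5 RPKM against 35.7 ± 29.0 RPKM in controls (SD, n = 3 each). The log2 change of TMED3 was 2.25 ± 0.69, and it missed the threshold of limma both without the block (adjusted p = 0.263) and with it (0.0549).

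TMED5 went the other way, at 0.106, 0.525 and 5.12 RPKM with linseed against 10.9, 4.60 and 15.9 RPKM in controls. It was lower with linseed in every ewe, though linseed ewe 3 lay above control ewe 2, and linseed ewe 1 held 2 reads of it. Its log2 change was -2.26 ± 0.75 without the block (limma, adjusted p = 0.263) and passed with the block (adjusted p = 0.0457, SE 0.53). TMED7 had 2.95, 6.54 and 24.3 RPKM with linseed and 44.3, 25.2 and 34.8 RPKM in controls, groups that did not overlap and a change of -1.94 ± 0.73. TMED10, a p24 protein whose loss is lethal in mouse embryos, had 9.20, 21.8 and 77.2 RPKM with linseed and 52.4, 50.3 and 72.8 RPKM in controls. Ewe 3 did not share the lower values of ewes 1 and 2 in TMED10, and its change of -1.16 ± 0.76 did not pass (limma, adjusted p = 0.455).

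**Figure D2:**
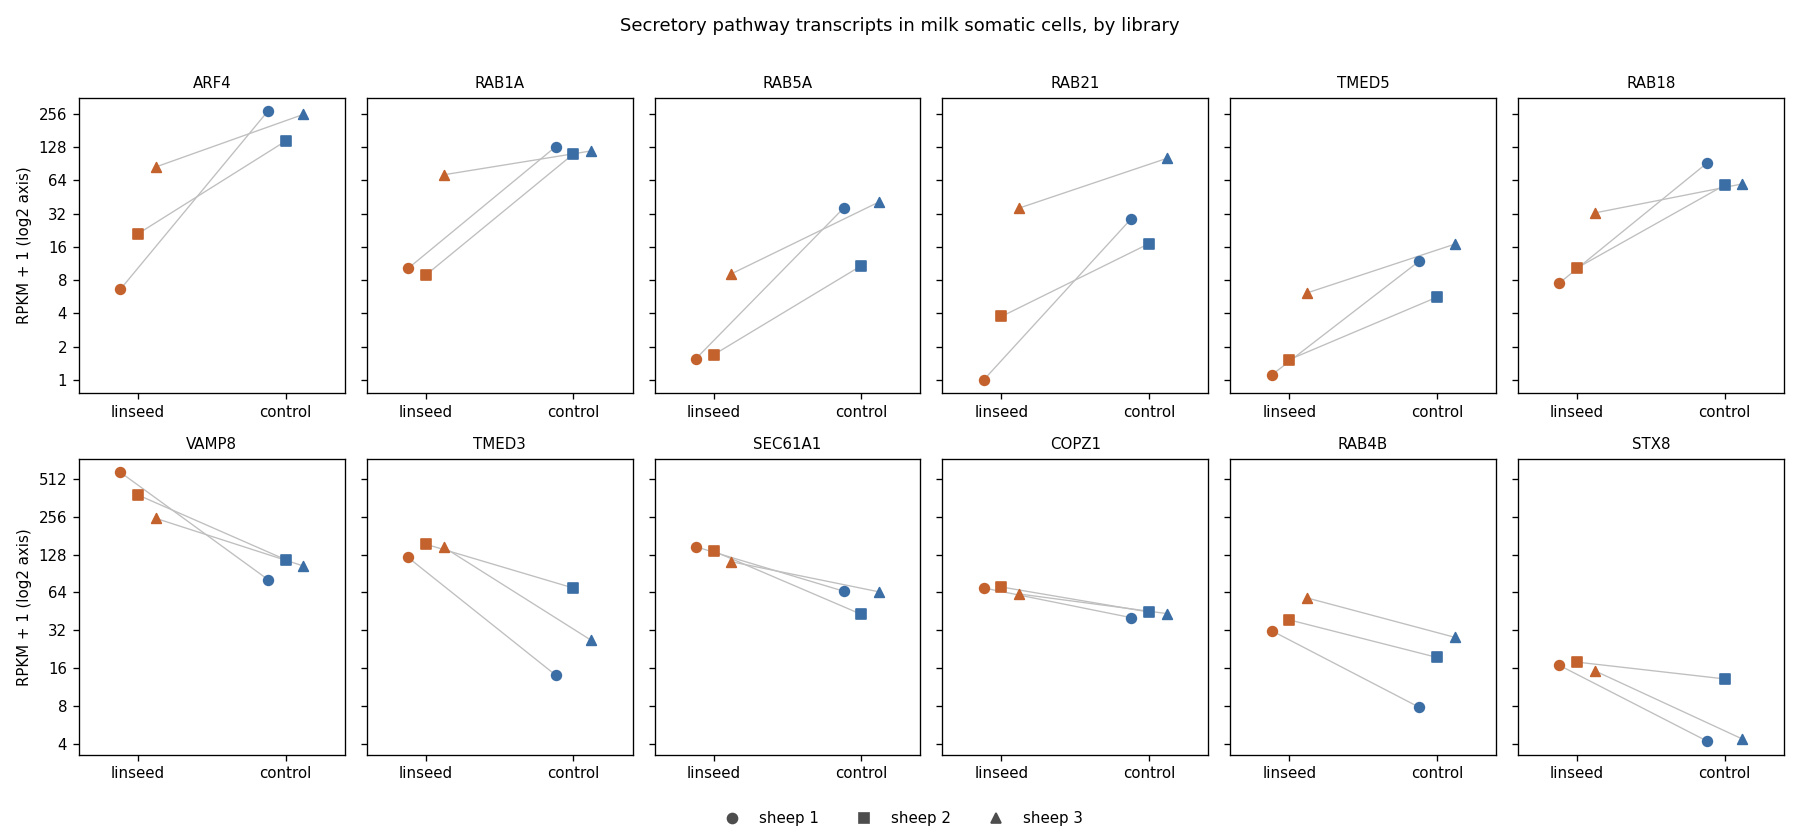
RPKM + 1 on a log2 axis for 12 members in the linseed (left) and control (right) library of each ewe, joined by lines; marker shapes are the ewes. In the upper row each line runs from a lower linseed to a higher control value and ewe 3 is the highest linseed library; in the lower row each linseed library lies above every control library.

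The COPI coat returns material from the Golgi to the ER. Among its 4 measured subunits that the symbol rule took, 3 were lower with linseed in all 3 ewes and 1 was higher in all 3. A further subunit outside the rule, ARCN1, was also lower in each ewe and is given with the partners further on. COPA, the alpha subunit, had 3.16, 5.45 and 24.5 RPKM with linseed and 32.4, 19.2 and 49.1 RPKM in controls. Linseed ewe 3 lay within the control range, and the log2 change of -1.88 ± 0.76 did not pass (limma, adjusted p = 0.292, or 0.0702 with the block). COPB2, the beta-prime subunit, had 2.59, 7.02 and 24.4 RPKM with linseed and 24.4, 26.3 and 25.8 RPKM in controls. In controls COPB2 hardly varied, at 25.5 ± 0.942 RPKM (SD, n = 3), while its linseed libraries spread at 11.3 ± 11.5 RPKM, with ewe 3 at the level of the controls.

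COPZ1, the zeta subunit, was the exception and the steadiest of the set, at 68.5, 69.7 and 61.2 RPKM with linseed against 39.3, 43.6 and 42.4 RPKM in controls. The 2 groups lay apart, at 66.5 ± 4.60 and 41.8 ± 2.26 RPKM (SD, n = 3 each), a 1.59-fold ratio of means. Its log2 change of 0.66 ± 0.56 carries the shared error of the whole fit and did not pass (limma, adjusted p = 0.559). Subunits of 1 coat complex therefore stood on both sides of 0. SEC22B, a SNARE of ER and Golgi vesicles, had 2.53, 4.50 and 11.4 RPKM with linseed and 33.4, 18.9 and 13.3 RPKM in controls, with no overlap and a change of -1.78 ± 0.67.

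ARF GTPases recruit coats to the Golgi and to endosomes, and the 4 tested members differed among themselves by more than those of the coats. ARF4, which acts at the Golgi and in recycling endosomes, had 5.59, 20.0 and 83.5 RPKM in linseed ewes 1, 2 and 3, against 270.3, 144 and 252 RPKM in control ewes 1, 2 and 3. No linseed library reached the lowest control library, and linseed ewe 1, the lowest, held 15 reads of this transcript. The mean was 36.4 ± 41.5 RPKM with linseed and 222 ± 68.2 RPKM in controls (SD, n = 3 each), 6.11 times higher in controls. The log2 change of -3.24 ± 0.86, the most negative of the 75 members, did not pass without the block (limma, adjusted p = 0.263) and passed with it (adjusted p = 0.0441, SE 0.70); within ewes 1, 2 and 3 it was -5.36, -2.79 and -1.58.

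The other ARF genes had positive changes. ARF3, a Golgi ARF, had 53.5, 51.0 and 64.5 RPKM with linseed and 23.7, 27.6 and 45.5 RPKM in controls, with every linseed library above every control library. ARF5 had 14.5, 33.9 and 35.9 RPKM with linseed and 6.02, 17.4 and 26.4 RPKM in controls, higher in each ewe with overlapping groups. ARF6, which works at the plasma membrane, had 30.4, 57.9 and 91.3 RPKM with linseed and 34.1, 23.8 and 91.4 RPKM in controls, equal in ewe 3 and higher with linseed in ewe 2 alone; its change was 0.36 ± 0.70. None of these 3 passed in limma with or without the block, the smallest adjusted p being 0.319.

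The RAB GTPases were the largest family, with 40 measured and 30 tested. Of the 30, 20 had negative changes and 10 positive ones, beside 3465 and 2511 of the 5976 tested genes. In all 3 ewes, 14 of the 30 were lower with linseed (46.7%, where 30.8% of all tested genes were). Another 3 were higher in all 3 ewes (10.0%, where 22.7% of genes were). The median was -0.71 (-0.66 with quantile normalization, -0.52 with a length correction). In 25 of the 30, or 83.3%, ewe 3 was the highest of the linseed libraries, beside 67.8% of all tested genes. With the block, limma called 3 of them, RAB1A, RAB5A and RAB21, all lower (115 of the 5976 tested genes and 1.34% of all transcripts were).

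RAB1A, which directs vesicles between the ER and the Golgi, had 9.21, 7.89 and 70.8 RPKM in linseed ewes 1, 2 and 3, against 128, 110.1 and 117 RPKM in control ewes 1, 2 and 3. All linseed libraries were below the controls, which averaged 118 ± 9.13 RPKM (SD, n = 3), and linseed ewe 3 stood far above the other 2 linseed libraries. Its log2 change was -2.67 ± 0.80 (limma, adjusted p = 0.263) and passed with the block (adjusted p = 0.0496, SE 0.66), just inside the threshold.

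RAB5A, the organiser of early endosomes, had 0.554, 0.687 and 8.12 RPKM with linseed against 34.9, 9.80 and 39.8 RPKM in controls on its most abundant matched transcript. The groups did not overlap, and linseed ewes 1 and 2 held 2 and 3 reads. The mean was 3.12 ± 4.33 RPKM with linseed and 28.1 ± 16.1 RPKM in controls (SD, n = 3 each), and the log2 change was -3.12 ± 0.82 (limma, adjusted p = 0.263; 0.0401 with the block, SE 0.57). The other transcripts of RAB5A, given further on, had smaller changes.

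RAB21, a RAB of early endosomes that carries integrins, had 0, 2.75 and 34.9 RPKM with linseed and 27.9, 16.1 and 100.2 RPKM in controls. Linseed ewe 1 held no read, which allows up to 0.907 RPKM (3 reads, counting error only). The groups overlapped, since linseed ewe 3 lay above control ewes 1 and 2, but each ewe was lower with linseed, by -4.85, -2.19 and -1.50 on the log2 scale. The mean change was -2.85 ± 1.15 without the block (limma, adjusted p = 0.291) and passed with it (adjusted p = 0.0441, SE 0.64).

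RAB18, found on lipid droplets and the ER, had 6.53, 9.31 and 31.4 RPKM with linseed and 90.8, 57.0 and 58.5 RPKM in controls. All linseed libraries lay below all controls, at a log2 change of -2.33 ± 0.68 that did not pass in limma without the block (adjusted p = 0.263) or with it (0.0544). RAB4A, of the fast recycling route, had 0, 3.31 and 7.03 RPKM with linseed and 11.0, 9.68 and 9.76 RPKM in controls; the 0 of linseed ewe 1 allows up to 0.924 RPKM. RAB7A, of late endosomes and lysosomes, had 12, 26.0 and 65.1 RPKM with linseed and 55.6, 45.7 and 92.0 RPKM in controls, lower in each ewe with overlapping groups.

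The RAB27 pair was scarce. RAB27A, needed for granule release in leukocytes, had 0, 0 and 0.689 RPKM with linseed and 0.202, 0.297 and 5.01 RPKM in controls. RAB27B had 0.115, 0.167 and 0.157 RPKM with linseed and 1.23, 0.598 and 5.98 RPKM in controls, with no overlap. Control ewe 3 was the highest library for both, and neither passed in limma with or without the block (smallest adjusted p 0.113, for RAB27B with the block).

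In 3 tested RABs, RAB4B, RAB20 and RAB32, linseed was higher in all ewes. RAB4B, the second RAB4, had 30.8, 37.7 and 56.9 RPKM with linseed and 6.79, 18.4 and 27.1 RPKM in controls. The groups did not overlap, and the change was 1.35 ± 0.66 (limma, adjusted p = 0.343). Further tested RAB4B transcripts, of 1700, 1794 and 1587 nt, had changes of 1.20, -0.84 and 0.42. That of 1794 nt was lower with linseed in each ewe. RAB32, which serves lysosome-related organelles and phagosomes, had 50.7, 93.2 and 128 RPKM with linseed and 6.68, 60.7 and 48.9 RPKM in controls, higher in each ewe with linseed ewe 1 inside the control range; its change was 1.58 ± 0.83 (limma, adjusted p = 0.37). RAB8A, of traffic from the Golgi to the plasma membrane, was the second most abundant RAB after RAB1A, at 46.7, 34.6 and 116 RPKM with linseed and 29.7, 33.5 and 144 RPKM in controls. Its change of 0.12 ± 0.77 turned to -0.25 with quantile normalization and to -0.22 with milk proteins left out.

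Of the 3 RAB effectors and regulators measured, RAB3IP and RAB3IL1 are exchange factors that activate RAB8. RAB3IL1 had 0.761, 1.36 and 7.21 RPKM with linseed and 0.166, 0.356 and 0.0591 RPKM in controls, with no overlap and with 6, 5 and 1 reads behind the control values. Its log2 change was 1.45 ± 0.60 (limma, adjusted p = 0.296). RAB3IP had 0.843, 1.39 and 0.279 RPKM with linseed and 6.72, 3.36 and 0.131 RPKM in controls, lower in ewes 1 and 2 and slightly higher in ewe 3. RAB11FIP2, an effector of RAB11 in recycling, had 0, 0.0555 and 0.533 RPKM with linseed against 1.52, 0.791 and 4.21 RPKM in controls. SEC14L2, a lipid transfer protein that binds tocopherol, had 1.88, 3.16 and 1.79 RPKM with linseed against 0.315, 0.891 and 1.72 RPKM in controls, the 2 values of ewe 3 nearly equal; its change was 0.77 ± 0.52.

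Among the SNAREs of the vesicle, VAMP8 was the most abundant of all 95 genes, at a mean of 251 RPKM over the 6 libraries. VAMP8, which fuses endosomes, autophagosomes and secretory granules, had 579, 381 and 248 RPKM in linseed ewes 1, 2 and 3, against 80.1, 116 and 103 RPKM in control ewes 1, 2 and 3. Every linseed library was above every control library, and ewe 3, the highest linseed library for most RABs, was the lowest for VAMP8. The mean was 403 ± 167 RPKM with linseed and 99.6 ± 18.1 RPKM in controls (SD, n = 3 each), a 4.04-fold ratio, and the log2 change of 1.94 ± 0.60 missed the threshold of limma without the block (adjusted p = 0.263) and with it (0.0776). Of the neutrophil markers, S100A9 had 1790.0, 1383 and 934 RPKM with linseed and 222, 300.3 and 297 RPKM in controls, while MMP9 had 34.5, 57.4 and 133 RPKM with linseed and 1.69, 19.6 and 62.8 RPKM in controls. Ewe 3 was thus the lowest linseed library for S100A9 and the highest for MMP9, and the part of neutrophils in the VAMP8 values was not tested.

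The other VAMPs were near 0 or moderate in change, and the family's median of -0.06 became 0.01 with the length correction. VAMP3, of recycling endosomes, had 30.0, 51.7 and 80.0 RPKM with linseed and 40.3, 50.7 and 58.7 RPKM in controls. Its change of 0.02 ± 0.61 turned to -0.28 with quantile normalization and to -0.33 once milk proteins were removed from the total. VAMP5 had 10.2, 8.49 and 8.71 RPKM with linseed and 2.05, 4.19 and 9.30 RPKM in controls, level in ewe 3.

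The syntaxins of late endosomes, STX7 and STX8, which sit in the same fusion complex with VAMP8, went opposite ways. STX8 had 15.8, 16.8 and 14.2 RPKM with linseed and 3.19, 12.1 and 3.35 RPKM in controls, with no overlap and a change of 1.42 ± 0.63 (limma, adjusted p = 0.315). STX7 had 1.08, 3.71 and 18.1 RPKM with linseed and 24.1, 21.8 and 26.0 RPKM in controls, also with no overlap, and a change of -2.12 ± 0.78 (limma, adjusted p = 0.273, or 0.0639 with the block). The controls of STX7 averaged 23.97 ± 2.09 RPKM (SD, n = 3), and linseed ewe 3 came nearest to them.

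STX18, which receives vesicles returning to the ER, had 7.05, 4.35 and 5.51 RPKM with linseed and 2.74, 3.10 and 1.79 RPKM in controls, with no overlap and a change of 0.90 ± 0.55. STX6, of the trans-Golgi network, had 12.7, 14.8 and 48.8 RPKM with linseed and 4.68, 11.5 and 73.7 RPKM in controls, values in which ewe 3 was far above the other ewes in both diets. SNAP23, the SNAP-25 relative used for exocytosis outside neurons, had 2.65, 1.68 and 10.4 RPKM with linseed and 18.4, 13.3 and 18.6 RPKM in controls, with no overlap and a change of -1.87 ± 0.67 (limma, adjusted p = 0.266, or 0.0641 with the block). SNAP47 had 1.58, 4.39 and 2.97 RPKM with linseed and 2.11, 2.58 and 3.91 RPKM in controls, with a change of 0.00 ± 0.56. The neuronal SNAP25 was below the minimum for testing, at a mean of 0.181 RPKM with linseed and 0.0744 RPKM in controls.

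Compared within ewes, the members had the smallest median difference in ewe 3. The median change of the 75 members was -0.41 in ewe 1, -0.46 in ewe 2 and -0.14 in ewe 3, beside -0.24, -0.14 and -0.11 over all tested genes. For RAB1A the differences were -3.66, -3.64 and -0.72 in ewes 1, 2 and 3, and for STX7 they were -3.60, -2.28 and -0.49. For RAB5A, RAB21 and TMED5 the difference of ewe 3 was -2.16, -1.50 and -1.47. Ewe 3 was also the animal whose linseed library was the deeper of its pair and whose milk protein share was lowest, and the part of these in its smaller differences was not tested.

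**Figure D3:**
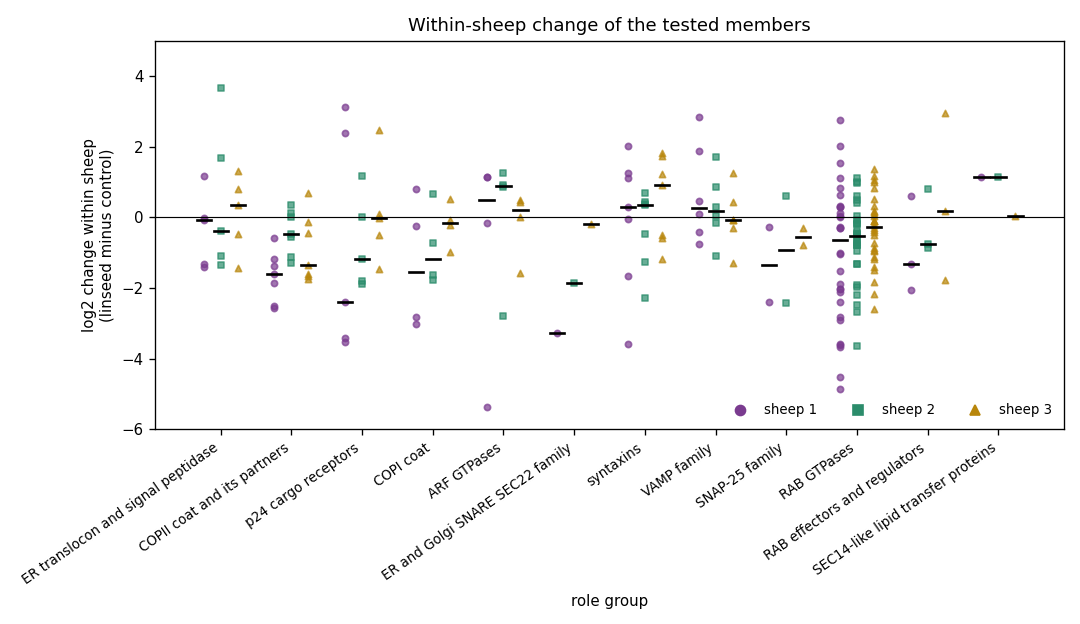
Log2 difference (linseed minus control) within each ewe for every tested member, by role; each point is 1 gene and the short line is the median of that role in that ewe. Differences of ewe 1 reach -5.36 (ARF4), while those of ewe 3 stay between -2.59 and 2.96; the COPII medians are below 0 in all 3 ewes.

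Several members have more than 1 transcript, and 12 had at least 2 that were tested. In 6 of the 12 all tested transcripts had the same sign, and in 6 they did not. The RAB5A value above came from a transcript of 730 nt; a longer one of 2066 nt had 2.16, 2.43 and 21.8 RPKM with linseed and 4.23, 7.09 and 16.3 RPKM in controls. That transcript was higher with linseed in ewe 3 and lower in the others, at a change of -0.52 ± 0.83. A transcript of 648 nt had 0, 1.55 and 3.57 RPKM with linseed and 2.79, 2.63 and 6.11 RPKM in controls, lower in each ewe, at a change of -1.02 ± 0.66. With RPKM summed over the transcripts of RAB5A, the change was -2.09. How reads shared between transcripts were divided is not given in the sources used here, so the split within a gene is uncertain.

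VAMP7, of late endosomes and lysosomes, also differed between its transcripts. Its transcript of 1857 nt had 11.9, 10.9 and 14.6 RPKM with linseed and 11.2, 12.4 and 18.3 RPKM in controls, a change of -0.13 ± 0.56, while that of 2681 nt had 0.151, 0.874 and 7.46 RPKM with linseed and 9.06, 11.0 and 11.5 RPKM in controls, with no overlap and a change of -2.12 ± 0.75. The controls of the 2 transcripts were close in level, and only the longer one differed between diets beyond the overlap of its libraries. COPA likewise had a second transcript of 4386 nt at 2.91, 1.79 and 0.595 RPKM with linseed and 1.51, 1.32 and 1.61 RPKM in controls, a change of 0.06 ± 0.53. By contrast, the 3 transcripts of STX8 had changes of 1.42, 1.95 and 1.36, each with every linseed library above every control library, and the 2 transcripts of SNAP23 each had every linseed library below every control library.

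**Figure D4:**
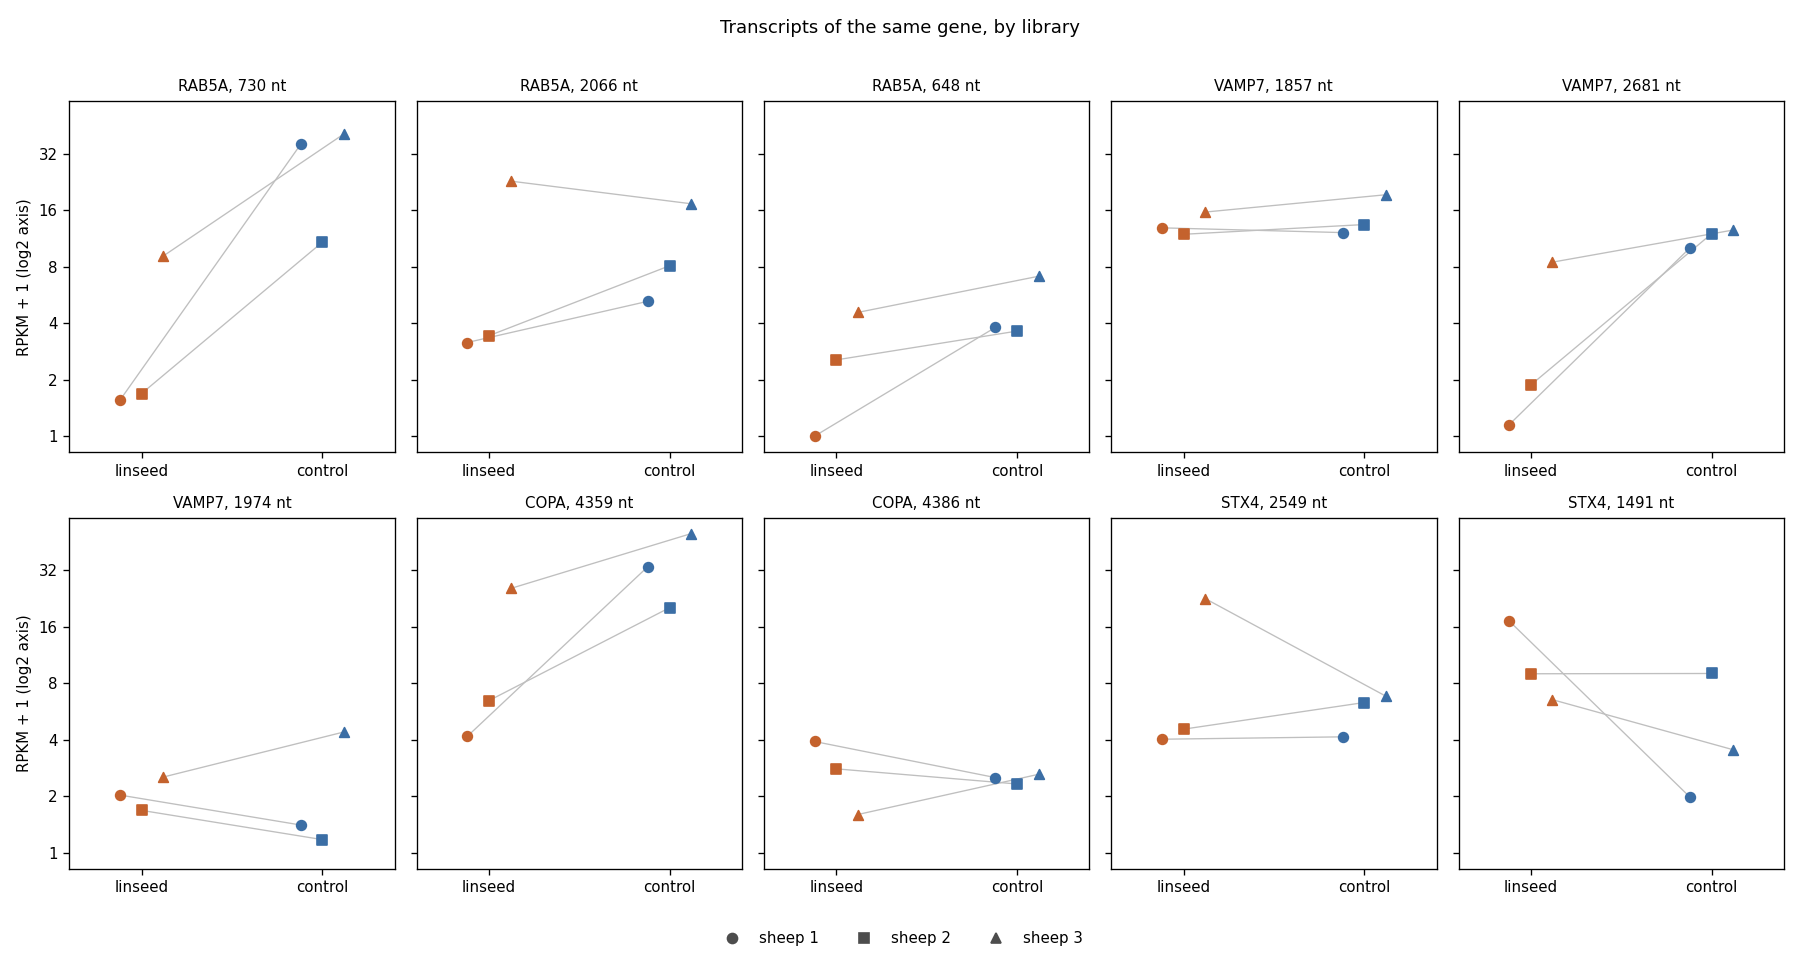
RPKM + 1 on a log2 axis for the tested transcripts of RAB5A, VAMP7, COPA and STX4 in the linseed (left) and control (right) library of each ewe, with the length of the transcript above each panel. The 730 nt transcript of RAB5A and the 2681 nt transcript of VAMP7 lie lower in every linseed library than in any control library, and their partner transcripts overlap.

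Close paralogs were not always alike. Pairs were taken only among RAB and SEC symbols alike up to the last letter or number. The ARF, VAMP, syntaxin, SNAP and TMED families were not paired. On 1 transcript per gene, 9 of 12 such pairs with both genes tested had changes of the same sign. The other 3 had opposite signs, RAB4A and RAB4B, RAB7A and RAB7B, and SEC61A1 and SEC61A2. The 9 include each pairing of SEC24A, SEC24B and SEC24C, which share genes. No rate for other pairs of genes was computed. The RAB4B transcript of 1794 nt, not the one used here, was on the side of RAB4A (change -0.84). The difference of RAB4A from RAB4B in log2(RPKM + 1) was -4.99, -3.17 and -2.85 in linseed ewes 1, 2 and 3 (the first set by the added 1, since RAB4A was at 0 there) and 0.62, -0.86 and -1.39 in control ewes 1, 2 and 3, so RAB4B led in every linseed library and in 2 of the 3 controls. The same difference of RAB7A from RAB7B was -0.65, 0.79 and 1.21 with linseed and 3.02, 1.50 and 2.01 in controls. For both pairs every linseed difference lay below every control difference. Both were picked for opposite signs in these same libraries, so a lower mean difference with linseed was built in. RAB7B alone had a change of 0.59 ± 0.65, and the ewes did not share its direction. RAB5A, on the 730 nt transcript, led RAB5B, on its 3390 nt transcript, in every control library and was below it in every linseed library. That order depended on the transcripts chosen. In linseed ewe 3 the 2066 nt transcript of RAB5A had 21.8 RPKM, above the 10.9 RPKM of the 3390 nt transcript of RAB5B. The RAB5B transcripts of 3522 and 3268 nt had changes of -1.68 and -1.30, beside -0.815 for that of 3390 nt.

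The partners of these genes, taken from 6 lists of the same pathway, had both signs as well. Of 143 listed genes 93 were measured and 83 tested, 29 of them lower with linseed in all 3 ewes (34.9%, near the 30.8% of all tested genes) and 20 higher (24.1%, near the 22.7% of genes), with a median change of -0.50. Without the block limma called 0 of them. With it 2 were lower, SAR1B and STXBP3, and 1 was higher, TRAPPC5. Of all 5976 tested genes, 115 were called lower and 83 higher with the block, and of all transcripts 1.34% and 1.28%. SAR1B, a GTPase that starts the COPII coat, had 0.781, 1.13 and 6.51 RPKM with linseed and 20.6, 9.71 and 20.3 RPKM in controls. Its groups did not overlap (change -2.48 ± 0.70, limma with the block, adjusted p = 0.0441). Its paralog SAR1A had 35.2, 27.8 and 54.4 RPKM with linseed and 43.4, 44.5 and 49.2 RPKM in controls. SAR1A was the more abundant paralog in every library, and its groups overlapped. The change of SAR1A was -0.27 ± 0.58 (limma with the block, adjusted p = 0.78). STXBP3, which binds syntaxins at the plasma membrane, had 0.181, 0.825 and 11.1 RPKM with linseed and 10.8, 14.6 and 22.8 RPKM in controls (change -2.47 ± 0.84; limma with the block, adjusted p = 0.0448).

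TRAPPC5, a subunit of the TRAPP complexes that activate RAB1, had 189.5, 116 and 44.8 RPKM with linseed and 9.93, 31.5 and 14.5 RPKM in controls, with no overlap and a change of 2.51 ± 0.72, just inside the threshold of limma with the block. RABAC1, an acceptor of prenylated RABs at the Golgi, had 293, 285 and 152 RPKM with linseed and 28.4, 78.2 and 38.7 RPKM in controls, a change of 2.38 ± 0.64 just outside it (adjusted p = 0.0503). GDI2, which extracts RABs from membranes, had 3.63, 11.1 and 54.9 RPKM with linseed and 78.4, 58.1 and 72.3 RPKM in controls, a change of -2.26 ± 0.84. ARCN1, the delta subunit of COPI, had 5.19, 10.2 and 40.3 RPKM with linseed and 70.9, 36.2 and 83.5 RPKM in controls, a change of -2.10 ± 0.76, on the same side as COPA and COPB2.

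The 20 members below the minimum included RAB3B, RAB3C, RAB6B, RAB17, RAB30, STX17, STX19, TMED8 and SEC22C, and no single value among them was above 3.17 RPKM. For 13 of them at least 1 library was at 0. SEC22C, the scarcer SEC22, had means of 0.0402 RPKM with linseed and 0.226 RPKM in controls. ARF1 and SEC31A, core genes of the route, were also among the 20, at means of 0 and 0.0548 RPKM with linseed and 0.115 and 0.321 RPKM in controls; only the transcripts matched to their symbols were counted, and other transcripts of these genes are not analysed here.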

How the data were processed

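The authors deposited 1 table of RPKM values for 49705 RefSeq transcripts in 6 libraries. The submitters' processing notes name Trimmomatic 0.33, a read trimmer; which aligner, build and counting tool were used, and whether strand was, is not given in the sources used here. GEO's labels carry no diet field: the letter in each title, read with the series design, gave the group. Symbols came from a RefSeq table of assembly ARS-UI_Ramb_v3.0, used for names alone: 15836 transcripts (31.9%) matched without version, 964 with it. Of 12 members on curated NM transcripts, 11 had lengths that are multiples of 3, so these may be coding lengths.

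Values were compared as log2(RPKM + 1), which understates changes of low transcripts, with limma 3.58.1 in R 4.3.3 (mean-variance trend, a minimum mean of 1 RPKM, Benjamini-Hochberg adjustment over 15891 transcripts, threshold 0.05). The ewe was no term in the main fit. The same animals gave both groups by their identifiers, so the fit with the ewe as a block is printed where it changes a call. Paired libraries' deviations correlated at 0.18, 0.25 and 0.40 in ewes 1, 2 and 3, and unpaired ones at -0.40 to 0.24. The highest unpaired value, of linseed ewe 2 with control ewe 1, was above that of the pair of ewe 1. Log2 changes carry the SE of the fit without the block unless named. Library totals, lengths and reads were solved from the RPKM steps (tolerance 0.002 reads); the reads recovered summed to 99.43% to 99.83% of the totals. Tested members had 2079 reads at the median, summed over libraries, and 1 had under 100. Intervals and floors cover counting error only. Without the block, p-values rest on the spread of the libraries within each diet. With it, they rest on the spread of the differences within ewes. In both fits limma draws a transcript's spread toward that of transcripts of similar level, and both rest on these 3 ewes alone.

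Members and gene lists were chosen with earlier results of these data known. Named members are those passing either fit, the 10 of smallest p in each direction and the 2 most abundant per role; paralogs and further members were named after their values were seen. Some genes of the lists are not reported here.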

Additional observations from a re-analysis of the deposited data

How the results depend on the processing

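Without the block, 0 transcripts and 0 members passed in limma under every alternative run. With the replicate block, 416 transcripts (203 higher, 213 lower) and 5 members passed; with milk proteins also left out of the total, 632 (132 higher, 500 lower) and 6 members, RAB18 being added. The block without 1 ewe gave 252, 173 and 2000 transcripts and 3, 3 and 14 members for ewes 1, 2 and 3. With the block, ARF4, RAB1A, RAB5A, RAB21 and TMED5 did not pass under quantile normalization, a pseudocount of 0.1 or the length correction. These blocked combinations, the length correction and voom were chosen after seeing the data. Over 8 blocked settings the adjusted p ran from 0.00923 to 0.0873 for ARF4 and RAB5A, 0.00923 to 0.221 for RAB1A, 0.0117 to 0.103 for RAB21 and 0.015 to 0.181 for TMED5.

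The members' median of -0.40 was -0.20 with no filter and -0.67 with milk proteins left out, with or without the block. It ran from -0.92 (without linseed ewe 3) to -0.10 (without linseed ewe 1), and was -0.62, -0.68 and -0.16 without control ewe 1, 2 or 3. Leaving out milk proteins shifted the median of all transcripts by -0.25, quantile normalization by 0.10 and voom by 0.10.

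Signs turned in named members of small change. RAB8A gave -0.25 with quantile normalization, -0.22 without milk proteins and -0.48 with the length correction. SEC11C gave -0.057 without milk proteins and -0.27 with the length correction, SEC24C 0.12 with the length correction, SNAP47 -0.013 with a pseudocount of 0.1 and -0.27 without milk proteins, and VAMP3 -0.28 with quantile normalization and -0.33 without milk proteins, each the same with the block. With libraries or ewes left out, the log2 change ran from -0.08 to 0.91 for ARF6, -0.38 to 0.84 for RAB8A, -0.23 to 0.72 for SEC11C, -0.64 to 0.40 for SEC13, -0.92 to 0.17 for SEC24C, -0.29 to 0.29 for SNAP47, -0.47 to 1.39 for STX6 and -0.32 to 0.38 for VAMP3. With the block, leaving out ewe 1 gave -0.14 for RAB8A, 0.40 for SEC13, 0.10 for SEC24C and -0.12 for STX6, leaving out ewe 2 gave -0.08 for ARF6 and -0.29 for SNAP47, and leaving out ewe 3 gave -0.23 for SEC11C and -0.19 for VAMP3. The cause was not tested.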
